A study of Rattus norvegicus with 70 samples.

Results

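Chemokines and their receptors were described across 6 tissues of male Wistar-Kyoto rats, an inbred strain, that breathed air or 0.8 ppm ozone for 4 h. The members are all genes in the deposited tables whose symbol begins with Cxcl, Ccl, Cx3cl, Xcl, Cxcr, Ccr, Cx3cr, Xcr or Ackr and a number. They number 51 of 19441 gene entries, with 31 ligands, 17 receptors and 3 atypical receptors. RNA sequencing measured messenger RNA in skeletal muscle, adipose tissue, lung, liver, hypothalamus and the adrenal gland. There were 6 air and 6 ozone libraries for lung, for liver and for hypothalamus, 6 air and 5 ozone for muscle, 5 air and 6 ozone for adrenal, and 5 of each for adipose tissue. No group carried a genetic change or a second treatment by the labels, and the labels give neither the age of the rats nor the time between the end of exposure and tissue collection. They do not say in words that each library came from a different rat. Each p-value therefore sets the difference tested against the spread of these libraries only. A member was described in a tissue where its mean deposited value, a count divided by a size factor of the library, was at least 10. This held for 44 members in at least 1 tissue and for 152 pairs of a member and a tissue.

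Chemokines are small secreted proteins that bind glycosaminoglycans on cell surfaces and guide leukocytes through G protein-coupled receptors. CXC ligands with the ELR motif (Cxcl1, Cxcl2, Cxcl3 and Cxcl6) attract neutrophils through Cxcr2, the ligands Cxcl9, Cxcl10 and Cxcl11 are induced by interferons and act on T and NK cells through Cxcr3, and Cxcl12 holds Cxcr4-bearing cells in tissues without inflammation. Atypical receptors bind chemokines without G protein signalling and remove them from the tissue. In airways exposed to ozone, neutrophil-attracting CXC ligands and the monocyte attractant Ccl2 are known to be made by epithelial cells and macrophages.

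The promoters of 5 CXC ligands are printed here because these genes rose in lung or fell in other tissues and lie in neighbouring groups on the same chromosome. Each sequence is the 250 bases before the annotated start of the gene, 5′ to 3′ on the strand of the gene, from RefSeq on the GRCr8 build. Capitals mark matches to the NF-kappa-B consensus and to the interferon response repeat, which is GAAA, any pair of bases, and GAAA again.
Cxcl2, chr14:17467256-17467505, minus strand: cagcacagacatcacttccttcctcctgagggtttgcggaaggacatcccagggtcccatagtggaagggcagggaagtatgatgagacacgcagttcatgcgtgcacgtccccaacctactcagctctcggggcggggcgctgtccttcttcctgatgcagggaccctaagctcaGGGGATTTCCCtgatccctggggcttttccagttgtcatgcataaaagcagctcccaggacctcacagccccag
Cxcl1, chr14:17479322-17479571, minus strand: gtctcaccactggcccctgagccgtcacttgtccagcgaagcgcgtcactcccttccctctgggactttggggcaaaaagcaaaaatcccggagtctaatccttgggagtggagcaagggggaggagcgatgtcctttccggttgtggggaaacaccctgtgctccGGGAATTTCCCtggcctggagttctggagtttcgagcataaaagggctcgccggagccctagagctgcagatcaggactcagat
Cxcl6, chr14:17596418-17596667, minus strand: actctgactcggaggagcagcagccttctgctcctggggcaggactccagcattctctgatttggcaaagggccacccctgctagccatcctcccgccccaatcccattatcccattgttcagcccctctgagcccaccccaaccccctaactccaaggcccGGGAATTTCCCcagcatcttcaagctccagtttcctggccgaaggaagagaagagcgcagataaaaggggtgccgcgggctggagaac
Cxcl10, chr14:15988816-15989065, plus strand: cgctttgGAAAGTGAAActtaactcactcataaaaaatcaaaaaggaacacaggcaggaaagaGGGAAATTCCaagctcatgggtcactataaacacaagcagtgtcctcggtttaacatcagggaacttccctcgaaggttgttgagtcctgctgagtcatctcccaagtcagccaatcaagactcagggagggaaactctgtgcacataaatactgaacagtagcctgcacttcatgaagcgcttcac
Cxcl11, chr14:15973478-15973727, plus strand: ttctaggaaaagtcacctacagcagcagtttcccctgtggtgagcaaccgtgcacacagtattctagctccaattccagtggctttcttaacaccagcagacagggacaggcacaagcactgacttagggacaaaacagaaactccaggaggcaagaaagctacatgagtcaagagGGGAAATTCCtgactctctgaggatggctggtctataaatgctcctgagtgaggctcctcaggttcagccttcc

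The NF-kappa-B match lay 84 to 74 bases before the start in Cxcl1, 74 to 64 in Cxcl2 and 88 to 78 in Cxcl6, where each stretch joins a pair of overlapping matches. In Cxcl11 it lay 74 to 65 bases before the start, and TTCNNNGAA, not capitalised here, at 250 to 242. Cxcl10 held it at 187 to 178 bases and the interferon response repeat at 243 to 234 bases. On both strands, 8 of the 39 members with a RefSeq promoter (20.5%) held the NF-kappa-B consensus, against 3.54% of 33469 promoters of the same length. The other matches were in Ccl9, Ccl20 and Ccr3. The interferon response repeat was in 2 of 39 (5.13%, against 3.41%), TTCNNNGAA, the spacing bound by STAT factors, in 4 of 39 (10.3%, against 7.67%), and a glucocorticoid response element (GNACA, 3 bases of any kind, TGTNC) in 0 of 39 (against 0.373%). These are matches of letters. The RefSeq gene order places Cxcl2, Cxcl1, Cxcl3 and Cxcl6 as neighbours, and likewise Cxcl11, Cxcl10 and Cxcl9.

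In air, 30 members had their highest level in lung, 12 in adipose tissue, 5 in hypothalamus, 2 in liver, 2 in adrenal and 0 in muscle, as CPM, the recovered reads of a gene scaled to a common library total. These counts cover all 51 members with no minimum mean, and include the 7 tested in no tissue, whose levels were low. For Cxcl12 the order was adipose tissue at 702 ± 134 (SD, n = 5), liver at 272 ± 53.1 (n = 6), muscle at 237 ± 74.7 (n = 6), lung at 104 ± 12.9 (n = 6), hypothalamus at 87.5 ± 7.08 (n = 6) and adrenal at 19.6 ± 4.15 (n = 5). Liver and muscle overlapped, as did lung and hypothalamus. Cxcl3 was found mainly in lung (456 ± 79.6, SD, n = 6) and Ccl9, a macrophage chemokine, mainly in liver (424 ± 71.6, n = 6). Cx3cl1, the membrane-bound ligand fractalkine, was highest in hypothalamus (159.9 ± 19.1, n = 6) and next in adrenal (74.4 ± 13.9, n = 5), and Cxcr4 was highest in lung (200.2 ± 37.2, n = 6). The tissues were normalised apart, so these orders are descriptions.

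The identity markers of each tissue checked the labels: the 6 lung markers summed to 191035 or more in every lung library and to at most 8699 in any library of another tissue. That value of 8699 was in liver air 1, followed by 4751 in liver ozone 19 and 4027 in adrenal ozone 20. In hypothalamus the sum was 56.8 to 2047 in air, highest in air 1, and 41.5 to 196 after ozone. The part of lung RNA in the hypothalamus values was not tested. Muscle markers summed to as much as 213266 in 1 adipose air library. Recovered reads per library ran from 8854272 to 18848151 over the 6 tissues.

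The share of members called was highest in muscle and lung. In lung 7 of 41 members tested rose and 7 fell, where 9.51% of all 14828 genes tested rose and 8.18% fell (17.7% called in all), by limma at an adjusted p under 0.05. In muscle 1 of 18 rose and 16 fell, where 21.6% of 13043 genes rose and 22.1% fell (43.7% in all). In liver 0 of 24 rose and 4 fell (6.74% and 4.72% of 12573 genes, 11.5% in all), and in adrenal 3 of 21 rose and 2 fell (9.23% and 9.38% of 14026 genes, 18.6% in all). In adipose tissue 0 of 31 rose and 4 fell (3.87% and 3.45% of 14252 genes, 7.32% in all), and in hypothalamus 0 of 17 rose and 1 fell (0.789% and 0.624% of 15217 genes, 1.41% in all). Where 0 members rose by limma, edgeR and DESeq2 also called 0 risen under the same minimum mean, and at an unadjusted p under 0.05 the risen members numbered 0 in liver, 2 in hypothalamus and 0 in adipose tissue. With no minimum, Cxcl2 passed as higher in hypothalamus (limma adjusted p = 0.0493), at means of 0.628 in air and 4.94 after ozone. Without the lung libraries air 1 and air 2, 7 lung members rose and 4 fell, and without air 9 limma called 0 of 30 adipose members, of which 8 were lower and 0 higher at an unadjusted p under 0.05. The median log2 fold change of the members was -1.46 in muscle, -0.51 in hypothalamus, -0.43 in liver, -0.39 in adipose tissue, and -0.19 both in lung and in adrenal, against medians of all genes tested between 0.00 and 0.02. These are bulk samples, in which fewer cells of a type and less RNA per cell cannot be told apart.

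**Figure D1:**
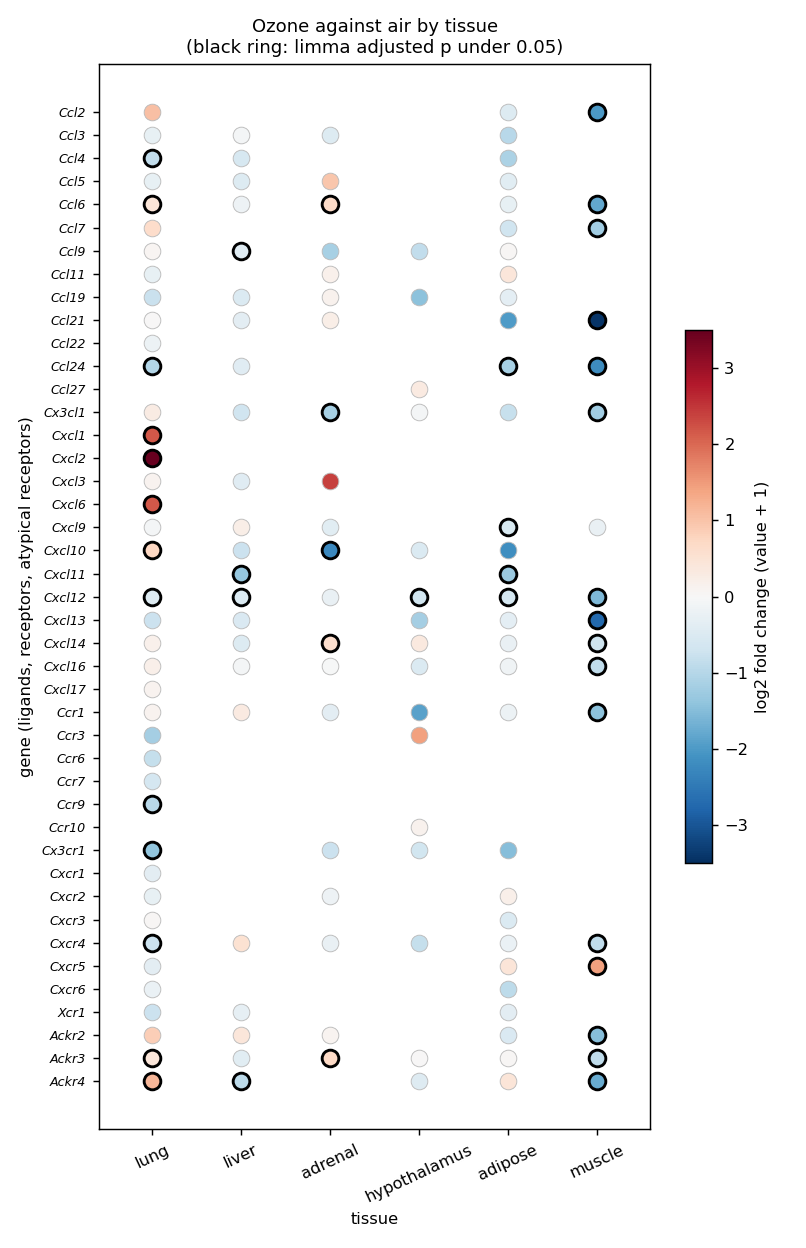
Log2 fold change of ozone against air on the value + 1 scale for 43 of the 44 members tested in at least 1 tissue, in rows, by tissue, in columns. Red is higher and blue lower after ozone, and a black ring marks an adjusted p under 0.05 in limma. Muscle has 15 ringed blue points among its 17 members shown, lung has its strongest red points at Cxcl1, Cxcl2 and Cxcl6, and the red adrenal point of Cxcl3 has no ring.

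The ELR ligands Cxcl2, Cxcl1 and Cxcl6 rose in lung, while their neighbour Cxcl3 showed no call. Cxcl2, a neutrophil attractant, was 1.00 to 4.86 with a median of 3.54 in air libraries. After ozone it was 31.0 to 78.7 with a median of 49.1. Its mean was 3.27 in air and 52.8 after ozone, so it reached the minimum mean through the ozone group alone. All ozone libraries lay above all air libraries, and the log2 fold change was 3.66 ± 0.33 (SE, n = 6 and 6, limma adjusted p = 4.98e-06). Other fold changes are given the same way, as log2 with the standard error, over all libraries of the tissue. Cxcl1, another ligand of Cxcr2, was 9.04 to 19.4 with a median of 15.7 in air and 36.3 to 109 with a median of 72.3 after ozone. The groups did not overlap (2.17 ± 0.27, limma adjusted p = 6.50e-05). Cxcl6, which also carries the ELR letters, was 3.70 to 34.7 with a median of 17.1 in air and 43.4 to 109 with a median of 72.2 after ozone. Again no ozone library was as low as an air library (2.18 ± 0.41, limma adjusted p = 0.00226). Groups did not overlap for 4 members above and 4 members below air in lung, where 9.54% of all genes did not overlap.

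Cxcl3, the remaining ELR ligand, was 4122 to 6558 with a median of 5749 in air and 4830.4 to 7954 with a median of 5387 after ozone. The groups overlapped (0.13 ± 0.15, limma adjusted p = 0.609). The split between these neighbours is uncertain, since similar paralogs could share reads and how reads were counted is not given in the sources used here. Elsewhere Cxcl1, Cxcl2 and Cxcl6 had means under 10 in the other 5 tissues and were not tested within them. Their lung change is therefore not shown to differ from that in other tissues.

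The receptors of these ligands did not pass in lung: Cxcr2 had -0.28 ± 0.19 (limma adjusted p = 0.336) and Cxcr1 -0.37 ± 0.15 (adjusted p = 0.115). Of 11 neutrophil markers tested in lung, 1 rose and 5 fell, where 9.51% of all genes rose and 8.18% fell. Lcn2, also made by epithelium, rose from 2315 ± 441 to 4164 ± 835 (SD, n = 6 each, 0.85 ± 0.15), and Csf3r, the receptor for granulocyte colony-stimulating factor, had -0.92 ± 0.14. The neutrophil marker sum, most of it Lcn2, was 2958 to 4176 in air and 4237 to 5976 after ozone, while the median fold change of the 11 markers was -0.78. Ngp, Camp, Mpo, Prtn3 and Fpr1 had lung means under 10. Cxcr2 was also tested in adrenal (-0.19 ± 0.23, adjusted p = 0.630) and adipose tissue (0.19 ± 0.20, adjusted p = 0.627).

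**Figure D2:**
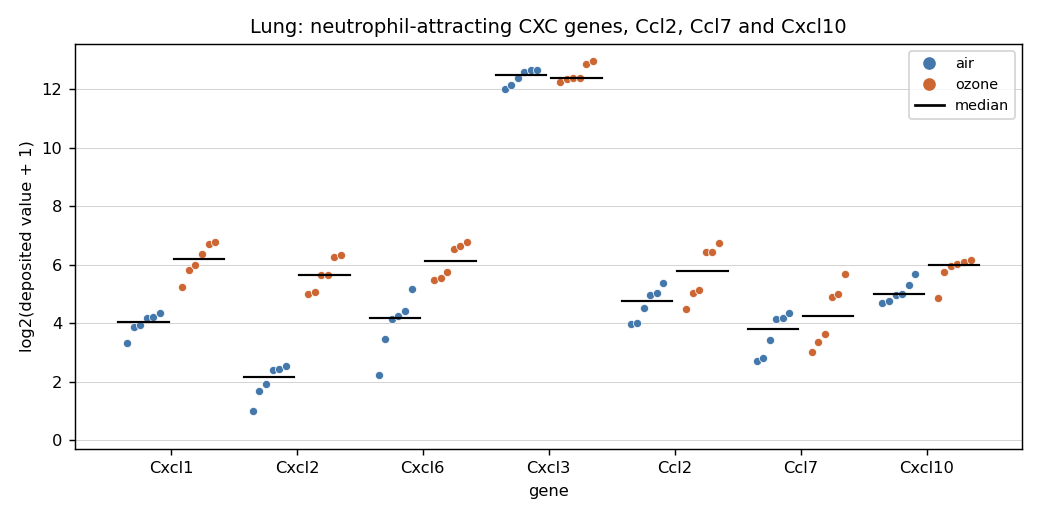
Deposited value of 7 ligand genes in lung as log2(value + 1), 1 point per library, 6 in air (blue) and 6 after ozone (orange), with the median as a black bar. Ozone points of Cxcl1, Cxcl2 and Cxcl6 all lie above their air points, and those of Cxcl3 overlap.

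Outside lung Cxcl3 was tested in liver and adrenal, where a few libraries carried most of it. In liver it was 0 to 208 with a median of 11.2 in air and 0 to 85.9 with a median of 4.68 after ozone, and the highest air value was in air 1 and the highest ozone value in ozone 19. In adrenal values were 0, 1.12, 1.68, 4.03 and 9.57 in air and 0 to 129.9 with a median of 24.3 after ozone, the highest in ozone 20. These are also the libraries with the highest lung marker sums of their groups, at 8699, 4751 and 4027. The part of lung RNA in these values was not tested. Cxcl3 passed in neither tissue (-0.44 ± 1.24 and 2.40 ± 1.08, limma adjusted p = 0.902 and 0.144).

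Cytokines that induce these ligands and NF-kappa-B feedback genes were taken as 1 list in lung, where 9.51% of all genes rose and 8.18% fell. Of 23 tested, 8 rose and 2 fell (median 0.27), the fallen share near that of all genes. Nfkbia, the inhibitor that NF-kappa-B induces, rose from 2933 ± 397 to 6561 ± 825 (SD, n = 6 each, 1.16 ± 0.11), and the decoy receptor Il1r2 rose as well (1.83 ± 0.21). Il33, an alarmin of epithelial and stromal cells, fell (-1.58 ± 0.09, limma adjusted p = 2.09e-07). Among 34 genes of chemokine receptor signalling 5 rose and 5 fell (median -0.01), not far above the shares of all genes. Rgs16, which shortens G protein signals, rose from 27.9 to 242 (3.10 ± 0.25), Gnai2 rose (0.75 ± 0.11) and the integrin gene Itgal fell (-0.48 ± 0.07). Among 17 rolling and arrest molecules 1 rose and 3 fell (median -0.10): Selp, the P-selectin of activated endothelium and platelets, rose from 27.5 to 172 (2.42 ± 0.35), and Itgb7 fell (-1.02 ± 0.19). Of 13 chemokine-handling genes tested, Mmp9, a protease that also trims chemokines, fell (-1.21 ± 0.19) and Sdc4, a heparan sulphate proteoglycan, rose (0.72 ± 0.15).

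The interferon-inducible ligands fell in several tissues outside lung: Cxcl10 in adrenal, Cxcl11 in liver and adipose tissue, and Cxcl9 in adipose tissue. Cxcl10 rose in lung. Cxcl10 in adrenal was 189, 194, 607, 636 and 655 in air and 57.1 to 101 with a median of 93.5 after ozone. The lowest air library was above the highest ozone library, and within air 2 libraries, air 8 and air 9, lay far below the other 3. The log2 fold change was -2.24 ± 0.36 (SE, n = 5 and 6, limma adjusted p = 0.00114), and it was -2.72 (limma adjusted p = 0.00699) without the 4 adrenal libraries whose lung marker sum was over 1000. In lung Cxcl10 was 24.9 to 49.9 with a median of 30.8 in air and 28.2 to 70.6 with a median of 62.2 after ozone. The groups overlapped and the gene rose (0.73 ± 0.23, limma adjusted p = 0.0409), though the call held in 3 of 12 fits without 1 library and not without air 1 and air 2 (adjusted p = 0.147). Its fold changes were -0.75 ± 0.56 in liver (adjusted p = 0.495), -0.50 ± 0.31 in hypothalamus (adjusted p = 0.472) and -2.16 ± 0.75 in adipose tissue (limma adjusted p = 0.120). The effect on Cxcl10 differed between tissues (limma F test adjusted p = 0.00164).

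Cxcl11, the ligand with the tightest binding to Cxcr3, was 282 to 420.0 with a median of 381 in liver in air and 99.8 to 224 with a median of 129.9 after ozone. The liver groups did not overlap (-1.35 ± 0.19, limma adjusted p = 0.000354), and Cxcl11 was the only member tested in liver without overlap, where 7.62% of genes had none. In adipose tissue Cxcl11 was 28.2, 42.6, 49.1, 59.7 and 65.2 in air and 10.4, 12.5, 17.4, 26.5 and 34.0 after ozone. The groups overlapped (-1.31 ± 0.35, limma adjusted p = 0.0422). Cxcl9, which is induced by interferon gamma, fell in adipose tissue from 695, 806, 832, 869 and 1028 in air to 488, 491, 619, 631 and 663 after ozone. It was the only member tested there without overlap, against 8.81% of genes (-0.55 ± 0.14, limma adjusted p = 0.0353). The adipose calls of Cxcl9 and Cxcl11 each held in 3 of 10 fits without 1 library, and edgeR gave Cxcl11 an adjusted p = 0.0521. Cxcl9 did not pass in lung (-0.08 ± 0.22), liver (0.22 ± 0.26), adrenal (-0.41 ± 0.43) or muscle (-0.27 ± 0.16).

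**Figure D3:**
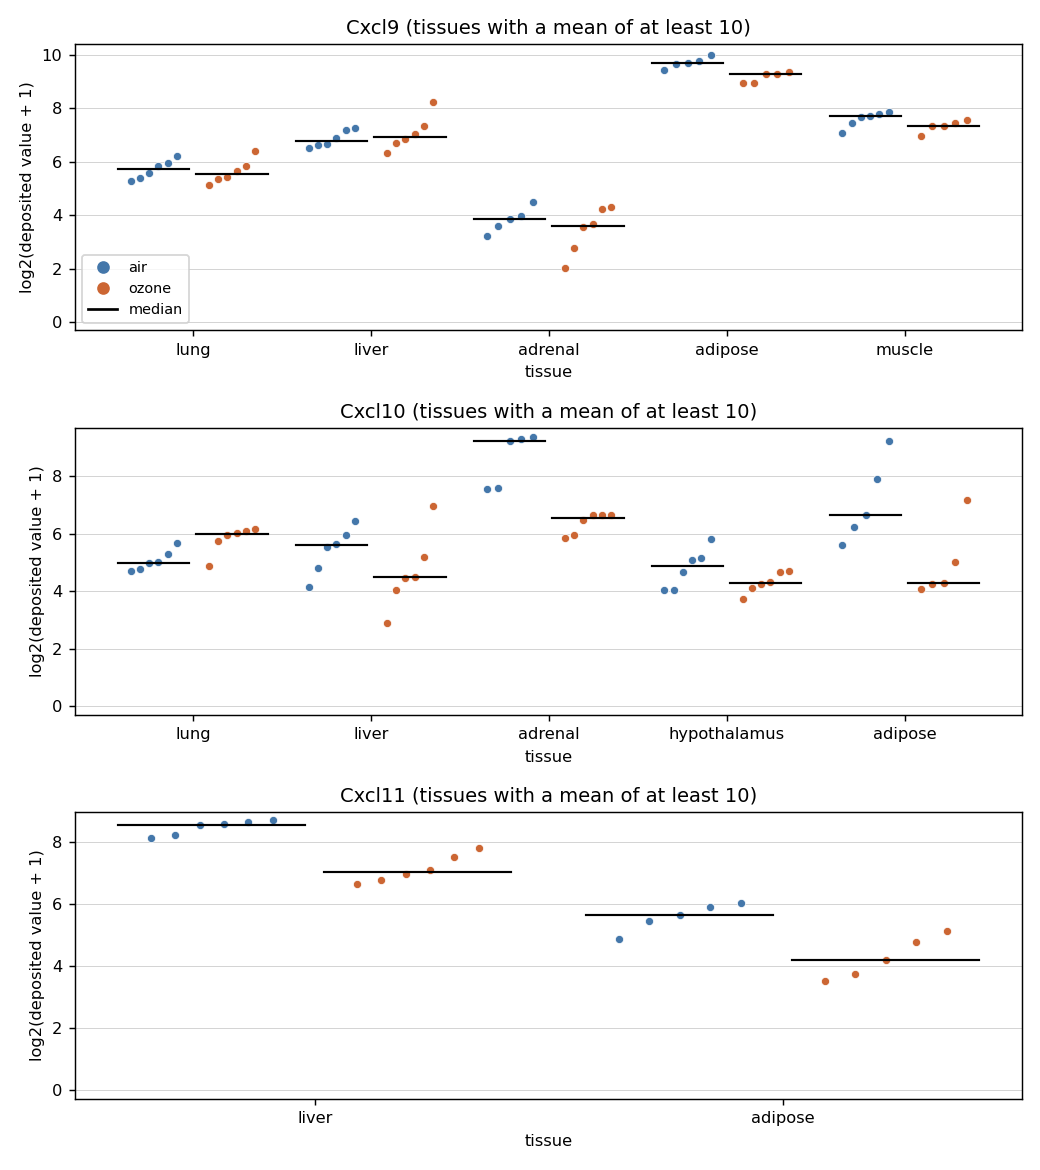
Deposited values of Cxcl9, Cxcl10 and Cxcl11 as log2(value + 1) in each tissue with a mean of at least 10, 1 point per library in air (blue) or after ozone (orange), with medians as black bars. The adrenal Cxcl10 and liver Cxcl11 points do not overlap between exposures, and lung Cxcl10 has the higher median after ozone.

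Of the interferon-stimulated genes other than chemokines, all that passed in limma fell, and 0 rose in any tissue. At an unadjusted p under 0.05, 1 of 27 rose in liver and 1 of 27 in muscle. The count fallen by limma was 17 of 28 in lung (median -0.50, where 8.18% of all genes fell) and 14 of 27 in muscle (-0.72, 22.1%). Liver had 10 of 27 (-0.51, 4.72%) and adrenal 8 of 27 (-0.72, 9.38%). The count was 2 of 27 in adipose tissue (-0.55, 3.45%) and also in hypothalamus (-0.39, 0.624%). In adrenal, where Cxcl10 fell, Parp14 (-1.44 ± 0.17) and the RNA sensor Ddx58 (-1.34 ± 0.15) fell. In lung, where Cxcl10 rose, Gbp5 (-0.96 ± 0.09), Mx2 (-1.02 ± 0.11) and Rsad2 (-1.13 ± 0.13) fell. In liver Parp14 (-1.41 ± 0.17), Parp9 (-0.92 ± 0.12) and Rtp4 (-1.13 ± 0.17) fell. Cxcr3, the receptor of these ligands, was tested in lung (0.05 ± 0.26, limma adjusted p = 0.914) and adipose tissue (-0.50 ± 0.28, limma adjusted p = 0.335).

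Cxcl12, the ligand of Cxcr4, fell in 5 of 6 tissues. Of 11111 genes tested in all 6 tissues, 17 (0.153%) fell in at least 5 of them. In hypothalamus it was 908 to 1131 with a median of 1064 in air and 581 to 728 with a median of 637 after ozone. Every ozone library lay below every air library (-0.68 ± 0.09, limma adjusted p = 0.00205), and 2 of the 17 members tested in hypothalamus, Cxcl12 among them, had no overlap where 2.15% of genes had none. The summed blood endothelial markers in hypothalamus were 3175 to 4510.1 in air and 1801 to 4382 after ozone, and their part in its level was not tested. In muscle it was 2280.2 to 4810.0 with a median of 3241 in air and 984, 1051, 1163, 1262 and 1360.2 after ozone. The groups were apart (-1.56 ± 0.18, limma adjusted p = 3.72e-05). In lung it was 1072 to 1430.5 with a median of 1273 in air and 799 to 949.6 with a median of 927 after ozone, without overlap (-0.46 ± 0.09, limma adjusted p = 0.00271).

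In liver Cxcl12 was 2714 to 4446 with a median of 4049 in air and 2206 to 3258 with a median of 2634 after ozone. The groups overlapped through air 9, the lowest air library (-0.50 ± 0.14, limma adjusted p = 0.0280). In adipose tissue it was 8609, 9446, 10193, 10376 and 13956 in air and 5626, 6506, 6662, 7032 and 8697 after ozone. The highest ozone library was just above the lowest air library (-0.60 ± 0.16, limma adjusted p = 0.0410). The liver call held in 5 of 12 fits without 1 library and the adipose call in 2 of 10. The adipose libraries also differed in muscle identity markers, which summed to 2448 to 213266 in air and 810 to 31328 after ozone, and the part of these in the adipose values was not tested. Adrenal Cxcl12 did not pass (-0.25 ± 0.19, limma adjusted p = 0.406), and the effect differed between tissues (limma F test adjusted p = 1.30e-05).

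Cxcr4, the signalling receptor of Cxcl12, fell in lung and muscle. In lung it was 1751 to 3014 with a median of 2431 in air and 1145 to 1887 with a median of 1408 after ozone. The groups overlapped at 1 ozone and 1 air library (-0.74 ± 0.14, limma adjusted p = 0.00218). In muscle it was 133 to 197 with a median of 181 in air and 62.5, 70.6, 111, 112 and 117 after ozone, without overlap (-0.88 ± 0.19, limma adjusted p = 0.00276). The other fold changes were 0.54 ± 0.34 in liver, -0.26 ± 0.29 in adrenal, -0.83 ± 0.23 in hypothalamus and -0.22 ± 0.26 in adipose tissue, none past the limma threshold. In hypothalamus DESeq2 on recovered reads called it (adjusted p = 0.0274).

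Ackr3, an atypical receptor that takes up Cxcl12 and Cxcl11, rose in lung and adrenal and fell in muscle. In adrenal it was 500.1, 523, 636, 646 and 727 in air and 775 to 1265 with a median of 989 after ozone. The ozone group lay above air (0.71 ± 0.15, limma adjusted p = 0.00561). Without the same 4 adrenal libraries it had 0.61 (limma adjusted p = 0.0725). In lung it was 1697 to 1958 with a median of 1842 in air and 1842 to 2799 with a median of 2538 after ozone, with 1 ozone library inside the air range (0.41 ± 0.10, limma adjusted p = 0.00824). In muscle it had -0.88 ± 0.20 (limma adjusted p = 0.00364). Fold changes in liver (-0.39 ± 0.40), hypothalamus (0.00 ± 0.14) and adipose tissue (0.04 ± 0.28) were within about 1 standard error of 0. The effect differed between tissues (limma F test adjusted p = 0.00509).

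**Figure D4:**
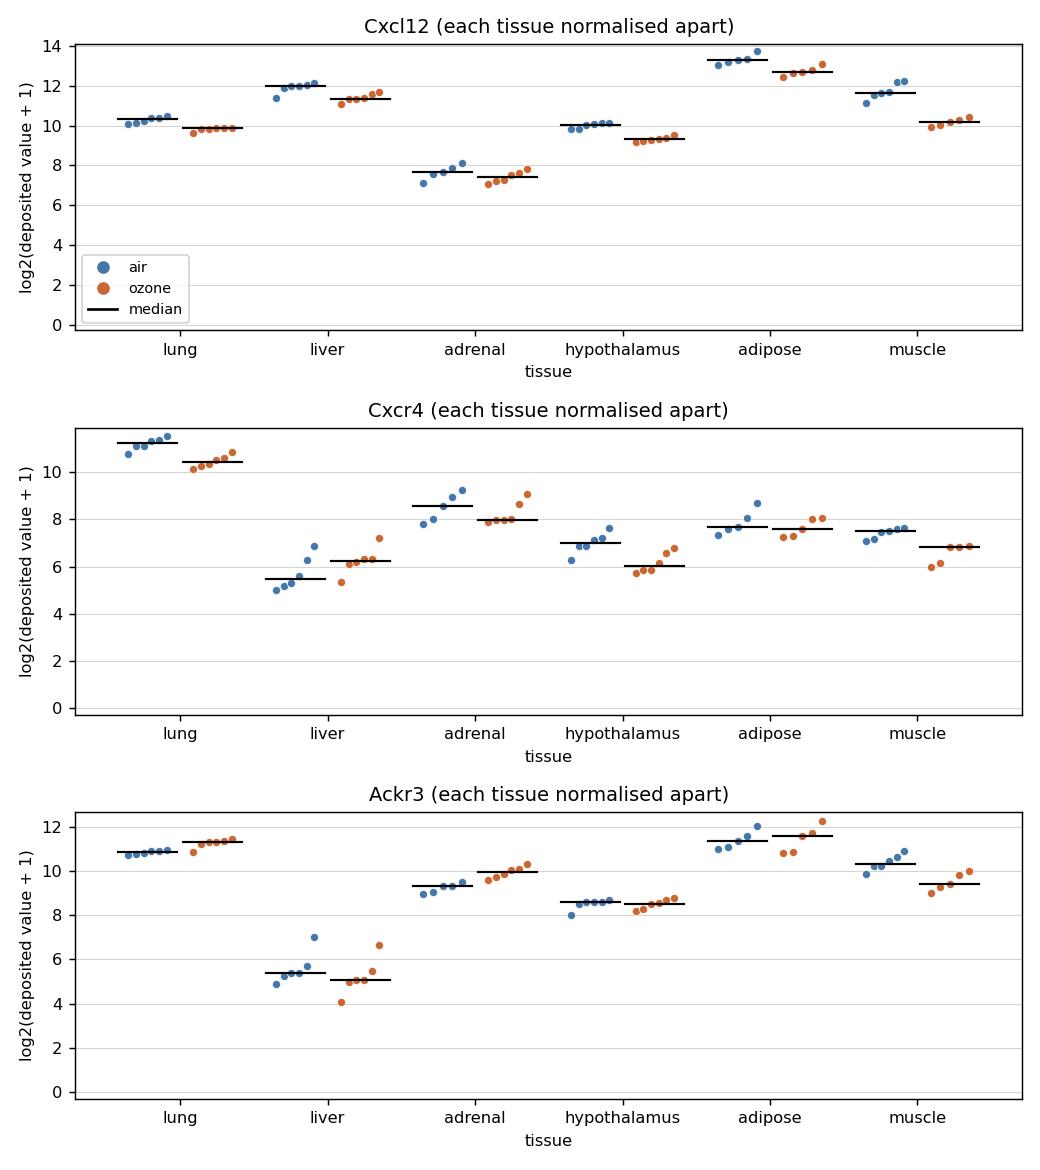
Deposited values of Cxcl12, Cxcr4 and Ackr3 as log2(value + 1) in the 6 tissues, 1 point per library in air (blue) or after ozone (orange), with medians as black bars, each tissue normalised apart. Cxcl12 medians are lower after ozone in all 6 tissues, with no overlap in lung, hypothalamus and muscle. Ackr3 medians are higher after ozone in lung, adrenal and adipose tissue and lower in muscle, liver and hypothalamus. Limma called Ackr3 only in lung, adrenal and muscle.

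Ackr4, which removes Ccl19 and Ccl21, rose in lung and fell in liver and muscle. In lung it was 703 to 1198 with a median of 723 in air and 1598 to 1969.7 with a median of 1794 after ozone. The groups were apart (1.15 ± 0.13, limma adjusted p = 2.61e-05). In liver it was 87.9 to 158 with a median of 128 in air and 55.7 to 90.9 with a median of 66.3 after ozone, with an overlap of the ends (-0.90 ± 0.17, limma adjusted p = 0.00237). Muscle values were 8.07 to 47.1 with a median of 16.8 in air and 2.23, 3.31, 5.06, 5.40 and 7.48 after ozone, without overlap (-1.77 ± 0.43, limma adjusted p = 0.00525). In hypothalamus (-0.44 ± 0.31) and adipose tissue (0.45 ± 0.41) it did not pass, and the tissues differed (limma F test adjusted p = 3.96e-05).

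Ackr2, which degrades inflammatory CC ligands, fell in muscle and did not pass in the other 4 tissues tested. It was 72.9 to 129 with a median of 103 there in air and 21.6, 29.8, 32.1, 34.6 and 68.8 after ozone, with no overlap (-1.48 ± 0.26, limma adjusted p = 0.000645). Its fold changes were 0.85 ± 0.33 in lung (limma adjusted p = 0.0939), 0.44 ± 0.37 in liver, 0.09 ± 0.34 in adrenal and -0.52 ± 0.32 in adipose tissue. In lung it passed without air 1 and air 2 (1.23, limma adjusted p = 0.0216). The difference between tissues passed (limma F test adjusted p = 0.00175). In lung all 3 atypical receptors thus had positive fold changes and in muscle all 3 fell.

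Among CC ligands, Ccl6 rose in lung and adrenal and fell in muscle. Ccl6 is a rodent chemokine of macrophages and epithelium that binds Ccr1. In lung it was 1800.2 to 2327 with a median of 2109.7 in air and 2212 to 3329.8 with a median of 2864 after ozone, with overlapping ends (0.45 ± 0.10, limma adjusted p = 0.00678). Adrenal values were 87.9, 91.0, 93.1, 121 and 125 in air and 123 to 203 with a median of 162 after ozone, where 1 ozone library lay inside the air range (0.66 ± 0.16, limma adjusted p = 0.0119). Without the 4 adrenal libraries of high lung marker sum, Ccl6 had 0.58 (limma adjusted p = 0.103). In muscle it was 96.7 to 212 with a median of 123 in air and 24.6, 28.7, 35.7, 39.4 and 64.8 after ozone, without overlap (-1.82 ± 0.26, limma adjusted p = 0.000163). Ccl6 had the lowest p of the members for a difference between tissues (limma F test adjusted p = 5.46e-06).

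Ccl24, an eosinophil attractant that acts through Ccr3, fell in lung, adipose tissue and muscle. In lung it was 15.7 to 32.3 with a median of 24.1 in air and 7.16 to 15.9 with a median of 11.5 after ozone. The groups met at 1 library each (-1.04 ± 0.25, limma adjusted p = 0.00914), and without air 1 and air 2 the adjusted p was 0.0590. In adipose tissue it was 255, 287, 378, 510.2 and 565 in air and 129, 132, 138, 189 and 299 after ozone, with 1 ozone library inside the air range (-1.18 ± 0.28, limma adjusted p = 0.0246), and the call held in 5 of 10 fits without 1 library. Its receptor Ccr3 did not pass in lung (-1.18 ± 0.50, limma adjusted p = 0.123) or hypothalamus (1.42 ± 0.43, limma adjusted p = 0.136).

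Ccl4, a CC ligand made by activated lymphocytes and macrophages, fell in lung. It was 58.3 to 80.7 with a median of 64.4 in air and 27.2 to 52.5 with a median of 32.4 after ozone. No ozone library reached the air range (-0.85 ± 0.18, limma adjusted p = 0.00387). Its relatives Ccl3 (-0.28 ± 0.19) and Ccl5 (-0.27 ± 0.13) did not pass in lung. Ccl5 in adrenal had 0.97 ± 0.36 (limma adjusted p = 0.0772) with ozone values above all air values.

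Ccl2 and Ccl7, which draw monocytes through Ccr2, did not pass in lung. Ccl2 was 14.8 to 40.9 with a median of 26.1 in air and 21.2 to 105 with a median of 59.2 after ozone. The ozone group was wider and overlapped air (1.05 ± 0.40, limma adjusted p = 0.0814). On recovered reads edgeR gave an adjusted p = 0.0496 and DESeq2 0.0159. Ccl7 had 0.65 ± 0.47 (limma adjusted p = 0.369), and in adipose tissue Ccl2 had -0.47 ± 0.54 and Ccl7 -0.71 ± 0.46. Ccr2 itself had its highest mean, 7.50, in adipose tissue and was tested nowhere. The other members under 10 in every tissue were Ccl12, Ccl17, Ccl20, Ccl28, Ccr4 and Xcl1, with highest means of 3.03 to 8.40 in lung. Just under 10 were Ccr10 in adipose tissue (9.31), Cxcl3 in hypothalamus (9.38) and Ccl24 in adrenal (9.76), and just over were Ccl9 in adipose tissue (10.2), Ccl3 in adrenal (10.2) and Cxcr5 in muscle (10.3).

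Ccl9, a macrophage ligand of Ccr1, fell in liver. It was 4545 to 8687 with a median of 5949 in air and 4190.2 to 4902 with a median of 4404 after ozone. The groups overlapped (-0.43 ± 0.13, limma adjusted p = 0.0490), and the call held in 1 of 12 fits without 1 library. Cxcl14, a ligand of epithelia and stroma, rose in adrenal from 383, 511, 525, 589 and 609 in air to 592 to 911 with a median of 802 after ozone. The ends overlapped (0.61 ± 0.15, limma adjusted p = 0.0131), and without the 4 libraries of high lung marker sum it had 0.41 (limma adjusted p = 0.158). The lymphoid ligands Ccl19, Ccl21 and Cxcl13 did not pass in lung, with -0.79 ± 0.49, 0.01 ± 0.19 and -0.77 ± 0.61. Air 1 and air 2 held the highest lung values of Ccl19 (137 and 188) and Cxcl13 (224 and 426), and also the highest B lymphocyte marker sums (3476 and 3979, against 1808 to 2251 in the other air libraries).

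Cx3cl1, fractalkine, fell in adrenal and muscle. In adrenal it was 664, 735, 747, 768 and 999.9 in air and 325 to 365 with a median of 344 after ozone. The ozone libraries were close together and all below air (-1.17 ± 0.12, limma adjusted p = 3.48e-05). Groups did not overlap for 2 adrenal members above air, Ackr3 and Ccl5, and 2 below, Cxcl10 and Cx3cl1, where 12.9% of genes did not overlap. Muscle values were 25.5 to 51.4 with a median of 46.0 in air and 13.0, 13.9, 17.7, 19.0 and 20.2 after ozone, also without overlap (-1.21 ± 0.24, limma adjusted p = 0.00148). Elsewhere it had 0.28 ± 0.14 in lung, -0.69 ± 0.41 in liver, -0.06 ± 0.10 in hypothalamus and -0.81 ± 0.23 in adipose tissue (limma adjusted p = 0.0504), and the tissues differed (limma F test adjusted p = 0.000486).

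Cx3cr1, its receptor on monocytes, NK cells and microglia, fell in lung. It was 96.2 to 175 with a median of 111 in air and 31.3 to 62.1 with a median of 51.9 after ozone. The groups were apart (-1.38 ± 0.21, limma adjusted p = 0.000377). In hypothalamus, where microglia carry it, it was 372 to 624 with a median of 509.6 in air and 201 to 459 with a median of 322 after ozone. The groups overlapped and limma did not call it (-0.67 ± 0.18, adjusted p = 0.104), whereas DESeq2 did (adjusted p = 0.0297). The sum of the microglia markers there was 1710 to 1882 in air and 1252 to 1557 after ozone. Of 6 tested 1 fell, Sall1 (-0.49 ± 0.09), where 0.624% of all genes fell. The part of microglia in the Cx3cr1 values was not tested. Cx3cr1 had -0.75 ± 0.38 in adrenal and -1.50 ± 0.52 in adipose tissue, neither past the threshold.

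In lung all 4 receptors that changed fell, and 0 of 14 tested rose in limma, also at an unadjusted p under 0.05. They include Cx3cr1, Cxcr4 and Ccr9. Ccr9, a gut-homing receptor of lymphocytes, was 14.0 to 33.2 with a median of 20.6 in air and 6.05 to 12.9 with a median of 11.2 after ozone. The groups did not overlap (-0.97 ± 0.27, limma adjusted p = 0.0240). The call for Ccr9 held in 8 of 12 fits without 1 library and was lost without air 1 and air 2 (limma adjusted p = 0.131). Of receptors with no call, Ccr6 had -0.84 ± 0.30, Ccr7 -0.63 ± 0.27, Xcr1 -0.75 ± 0.31, Cxcr5 -0.38 ± 0.43, Cxcr6 -0.22 ± 0.17 and Ccr1 0.12 ± 0.14.

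Part of the lymphocyte markers in lung fell, where 9.51% of all genes rose and 8.18% fell. Of 13 B lymphocyte markers 7 fell and 0 rose, with 10 and 0 at an unadjusted p under 0.05 (marker sum 1808 to 3979 in air and 947 to 1280 after ozone), led by Bank1 (-1.63 ± 0.12). Of 19 T and NK markers 8 fell and 0 rose, with 12 and 0 unadjusted (1951 to 2796 in air and 1012 to 1961 after ozone, overlapping at the ends), led by Gzmb (-1.37 ± 0.19). Of 16 macrophage markers 8 rose and 2 fell (125715 to 195445 in air and 178753 to 229129 after ozone), with Cd14 at 1.25 ± 0.11. The part of these cells in the lung receptor values was not tested.

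Skeletal muscle had calls for 17 of its 18 members. Ccl21, which leads Ccr7-bearing cells into lymphatic vessels, was 86.7 to 183 with a median of 109.9 in air and 6.07, 6.41, 7.82, 15.1 and 18.8 after ozone. The ranges lay far apart (-3.44 ± 0.30, SE, n = 6 and 5, limma adjusted p = 6.05e-06). Rat Ccl21 may have near-identical copies that share reads, so its counts are uncertain. Cxcl13, the B-cell attractant of lymphoid follicles, was 0.935 to 51.3 with a median of 36.1 in air and 0, 0, 1.08, 3.35 and 7.08 after ozone. Air 2 and air 4 were as low as ozone and the other 4 air libraries lay above it (-2.75 ± 0.95, limma adjusted p = 0.0322, called in 4 of 11 fits without 1 library).

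Ccl24 in muscle was 43.0 to 83.0 with a median of 50.2 in air and 5.52, 7.48, 11.9, 14.2 and 23.5 after ozone. The groups did not overlap (-2.20 ± 0.32, limma adjusted p = 0.000176). Ccl2 was 7.10 to 47.6 with a median of 16.9 in air and 1.07, 3.31, 3.35, 5.40 and 6.07 after ozone, low in both groups but apart (-2.02 ± 0.48, limma adjusted p = 0.00447). Ccr1, the receptor of Ccl6 and Ccl9, was 74.8 to 208 with a median of 121 in air and 17.7, 34.6, 49.2, 73.7 and 106 after ozone, with overlap (-1.44 ± 0.40, limma adjusted p = 0.0114). In all, 11 muscle members lay wholly below air and 1 wholly above, where 24.3% of genes did not overlap.

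Cxcr5, the receptor of Cxcl13, was the only muscle member to rise. It was 2.81 to 7.39 with a median of 5.38 in air and 8.55, 13.2, 17.2, 21.2 and 21.6 after ozone. Its lowest ozone library was above its highest air library (1.43 ± 0.33, limma adjusted p = 0.00377), at values near the minimum mean. It reached that minimum through the ozone group alone, with means of 5.32 in air and 16.4 after ozone. Of the remaining members Ccl7 had -1.21 ± 0.44, Cxcl16, the membrane-bound ligand of Cxcr6, -0.89 ± 0.25 and Cxcl14 -0.73 ± 0.22, all fallen. Ccl7 was called in 5 of 11 fits without 1 library. Ackr4, Ccl2, Ccl7 and Cxcl13 reached the minimum mean through air alone, with means of 18.5 to 27.8 in air and 2.30 to 6.82 after ozone. With a minimum mean of 50, which leaves out these members and Cxcr5, 8 of 9 muscle members fell.

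**Figure D5:**
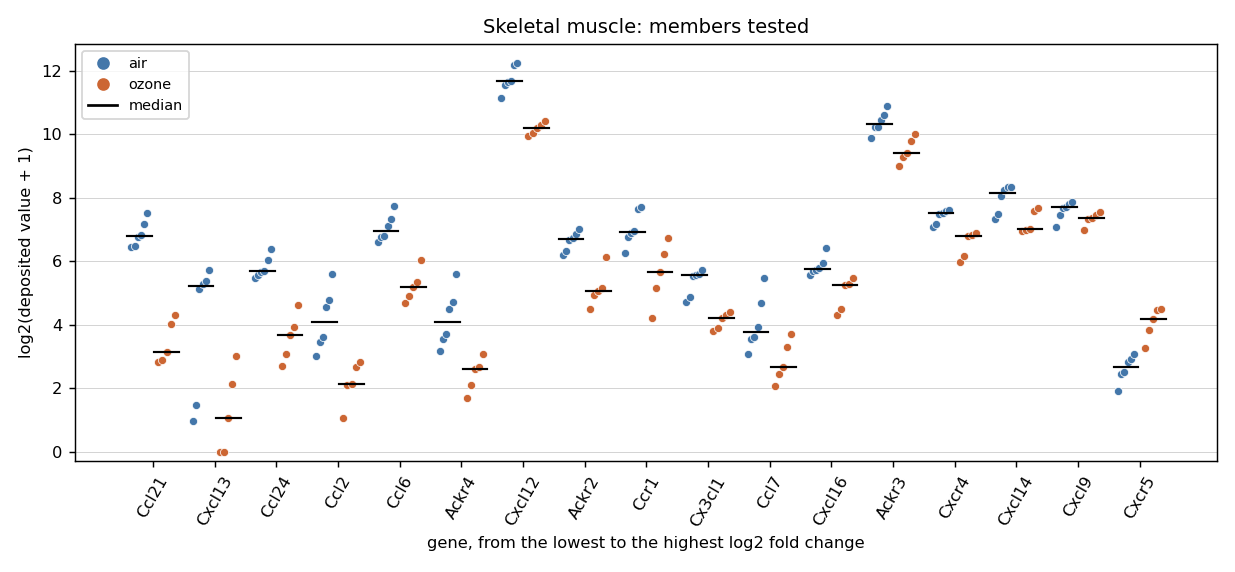
Deposited values of 17 of the 18 members tested in skeletal muscle as log2(value + 1), ordered from the lowest to the highest log2 fold change, 1 point per library, 6 in air (blue) and 5 after ozone (orange), with medians as black bars. Ozone medians are lower for 16 of these members and higher for Cxcr5.

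Other markers also changed in muscle, where 21.6% of all genes rose and 22.1% fell. The 4 muscle identity genes measured all rose, with a sum of 1218480 to 2065240 in air and 2976780 to 5031450 after ozone. Of 6 lymphatic endothelial markers 5 fell and 0 rose (sum 799 to 1899 in air and 369 to 656 after ozone), among them Mmrn1 (-3.46 ± 0.38), Reln (-2.69 ± 0.43) and Prox1 (-2.81 ± 0.51), while Lyve1, named after its value was seen, had -0.05 ± 0.21. Of 8 blood endothelial markers 5 fell (5588 to 7849 in air and 4355 to 5430 after ozone). Of 15 macrophage markers 4 fell, a share near that of all genes, with overlapping sums (2672 to 6121 in air and 2050 to 4317 after ozone). By limma 0 rose in either list, also at an unadjusted p under 0.05. Marco was listed at 0 in every muscle library. The part of these cells, or of the larger share of muscle transcripts, in the chemokine values was not tested.

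In each list of wider chemokine genes more fell than rose in muscle, where 21.6% of all genes rose and 22.1% fell. Of 33 signalling genes 1 rose and 16 fell (median -0.47), with Lyn at -1.42 ± 0.19, Gnai3 at -0.96 ± 0.14 and Grk5, a receptor kinase, at -1.13 ± 0.17. Of 16 rolling and arrest molecules 2 rose and 9 fell (median -0.93), with Selp at -2.94 ± 0.50, Cd34 at -1.51 ± 0.25 and Jam2 at -1.08 ± 0.18. Of 19 inducing cytokines and feedback genes 4 rose and 6 fell (median -0.38), with Zfp36, which destabilises cytokine messages, up (1.47 ± 0.19) and Il33 down (-2.13 ± 0.33). Of 9 chemokine-handling genes 1 rose and 6 fell (median -1.03), with Cd74 at -0.95 ± 0.14 and the chemerin receptor Cmklr1 at -1.27 ± 0.21.

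Of all genes, 9.23% rose and 9.38% fell in adrenal, and 3.87% rose and 3.45% fell in adipose tissue. The shares risen and fallen were 6.74% and 4.72% in liver, and 0.789% and 0.624% in hypothalamus. In adrenal 5 of 19 inducing cytokines and feedback genes rose and 2 fell (median 0.24), and Il33 rose there from 2026 ± 378 (SD, n = 5) to 9879 ± 828 (SD, n = 6). In adipose tissue 4 of 22 rose and 3 fell (median 0.04). Csf3, which raises neutrophil numbers, rose from 3.03 to 82.0 (4.41 ± 0.58), and it reached the minimum mean through the ozone group alone. Relb fell (-1.19 ± 0.16). In liver 3 of 20 rose and 2 fell (median 0.06), with Il1rn, an interleukin-1 antagonist, at 1.11 ± 0.22. In hypothalamus 1 of 19 rose, Nfkbia (0.82 ± 0.14), and 0 fell, with 4 and 2 at an unadjusted p under 0.05. Signalling genes outside lung and muscle gave 2 risen and 4 fallen of 34 in liver, 2 and 0 of 34 in adrenal, 0 and 0 of 34 in hypothalamus and 1 and 2 of 35 in adipose tissue. The adrenal counts were below the shares of all genes.

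Adipose values of Ccl21 were 0, 21.7, 162, 316 and 1283 in air and 2.27, 2.41, 6.37, 15.2 and 1200.1 after ozone. A library of each exposure stood far above the rest, air 5 and ozone 22, and these also had the highest lymphatic marker sums of their groups (3797 and 5436). The gene did not pass (-1.98 ± 2.21, limma adjusted p = 0.659).

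Over all tissues, the ozone effect differed between tissues for 17 of 44 members in the limma F test, where 34.1% of 17361 genes did, a share near that of all genes. The test needed a mean of at least 10 in only 1 tissue, and 2 of the 17, Cxcl2 and Cxcl6, reached it in lung alone, so for these it says nothing about the other tissues. Of the 8 members that reached it in every tissue 7 differed, where 41.9% of such genes did. The members with differences and calls of opposite sign were Ccl6, Ackr3, Ackr4, Cxcl10 and Cxcl14. The lung call of Cxcl10 was lost without air 1 and air 2. The adrenal calls of Cxcl14, Ccl6 and Ackr3 were lost without the libraries of high lung marker sum.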

How the data were processed

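Messenger RNA libraries were prepared on an automated system and sequenced on an Illumina NextSeq 500, per the labels' protocols, and 68 of 70 labelled libraries had a column. The libraries not analysed here are muscle ozone 17 and adrenal air 7. The values the authors deposited are a normalised signal, in which every library's counts were divided by a single factor: whole reads were recovered for 100% of values within 0.01. The submitters' processing notes give the names DESeq2, Partek and rn6, with no role. For the aligner, counting, strand setting and annotation nothing is given in the sources used here. No 2 libraries of a group were copies (lowest chi-square per degree of freedom 8.76).

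Each tissue was fitted apart on log2(value + 1) with limma 3.58.1 (R 4.3.3, mean-variance trend, robust moderation) over all genes with a mean of at least 10, with Benjamini-Hochberg adjustment. Fold changes on this scale understate low genes. Alternatives were edgeR 4.0.16, DESeq2 1.42.0, TMM scaling, array weights, pseudocounts, filters and left-out libraries. The fit was tested on simulated data. Members and lists were chosen with earlier results of these data known. In each tissue up to 12 called members with the largest fold change were given with library values, 14 symbols (Cxcl1, Cxcl2, Ccl2, Cxcl10, Cxcl12, Cx3cl1, Cxcr4, Ccr2, Cxcr2, Cx3cr1 and Ackr1 to Ackr4) by fold change wherever tested, and from each context list up to 3 genes with the lowest adjusted p. Ackr1 was not analysed here. The values of 1 member and 1 context gene are not reported here, though counts and medians include them.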

Additional observations from a re-analysis of the deposited data

Results flagged for a closer look

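Of 148 groups of 5 or 6 libraries checked for the named members, 15 had a library standing apart from the others of its group. The rule would flag about 5% of groups by chance only for normally distributed values in independent groups. Here values were untransformed and groups shared libraries, so the count cannot be set against chance. In adipose tissue these were Ccl2 in air 5 at 289.7 (nearest library 99.8) and Cxcl10 in ozone 16 at 143 (nearest library 31.6). In adrenal it was Ackr2 in ozone 15 at 3.87 (nearest library 11.2). In hypothalamus it was Ackr3 in air 6 at 260.3 (nearest library 366). In liver these were Ackr3 in air 1 at 129 (nearest library 51.7), Ackr3 in ozone 19 at 99.8 (nearest library 44.0), Cx3cl1 in ozone 19 at 45.1 (nearest library 19.2), Cxcl10 in ozone 13 at 125 (nearest library 35.7), Cxcl12 in air 9 at 2714 (nearest library 3804) and Cxcr4 in ozone 19 at 146 (nearest library 78.8). In lung these were Ackr4 in air 9 at 1198 (nearest library 858), Ccl4 in air 10 at 80.7 (nearest library 65.9) and Cxcl12 in ozone 20 at 799 (nearest library 896). In muscle these were Ackr2 in ozone 15 at 68.8 (nearest library 34.6) and Cxcl16 in air 7 at 84.8 (nearest library 60.8). Liver air 1 and ozone 19, which hold 4 of these values, had the highest lung marker sums of their groups, at 8699 and 4751, and the part of lung RNA in them was not tested.

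The ozone effect differed between tissues for 17 members by the limma F test over the 5 terms of tissue and exposure. The adjusted p-values of 16 of them were Ccl6 (5.46e-06), Cxcl12 (1.30e-05), Ackr4 (3.96e-05), Cxcl2 (6.45e-05), Cx3cl1 (0.000486), Cxcl10 (0.00164), Ackr2 (0.00175), Cxcl11 (0.00333), Ackr3 (0.00509), Cxcl6 (0.00704), Ccr3 (0.00878), Cxcl14 (0.0111), Cxcr4 (0.0122), Ccr1 (0.0191), Ccl5 (0.0280) and Ccl3 (0.0364). Cxcl2 and Cxcl6 had a mean of at least 10 in lung alone, so for these the test says nothing about the other tissues. Ccr3 had such a mean only in lung and hypothalamus. It reached it through air in lung (21.2 in air, 8.31 after ozone) and through ozone in hypothalamus (8.22 in air, 22.5 after ozone).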

How the results depend on the processing

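With a minimum mean of 50, 8 of 24 lung members and 8 of 9 muscle members were called, from fewer members tested. In hypothalamus 2 members were called with no filter (1 risen, Cxcl2, and 1 fallen), 4 with array weights and 4 with DESeq2, against 1. Elsewhere no filter also called members under the minimum mean, of which only Ccl17 in lung was higher. The lower ones were Ccl12, Ccr10 and Xcl1 in lung, Ccl12 in liver, Ccl24 and Cxcl11 in adrenal, and Cxcl17 in adipose tissue. In muscle Ccr3, Cx3cr1, Cxcl10 and Xcr1 were lower. Without the 4 adrenal libraries whose lung marker sum was over 1000, an alternative added after seeing the data, 3 adrenal members were called, all fallen, and 2 of them were among the 5 called with all libraries. Among genes with a mean of at least 10 in every tissue, 7 of 8 members differed between tissues. The other alternatives of the counts stayed within 1.5 times the reported ones.

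Leaving out 1 library at a time, the calls ranged from 14 to 17 in muscle, 11 to 16 in lung, 5 to 7 in adrenal, 2 to 4 in liver, 0 to 3 in adipose tissue and 1 to 3 in hypothalamus. Liver had 2 calls without air 6, 7 or 10 or ozone 13, 14, 18 or 20. Adipose tissue had 0 without air 9, 1 without air 2 or 6 or ozone 19 or 23, and 2 without air 5 or ozone 22. Hypothalamus had 2 without air 6 and 3 without ozone 15. With the replicate block, which treats libraries of the same number in different tissues as paired, 17 members differed between tissues as before, and the correlation within numbers was 0.0014. Within a tissue no paired analysis was possible because air and ozone libraries share no number.

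Of the named fold changes, 1306 alternatives kept direction and side of the threshold, 91 lost a call, 19 gained one and 11 changed sign, all 11 of members with no call: without 1 library, Ackr2 in adrenal ranged from -0.0132 to 0.334, Ackr3 in hypothalamus from -0.0928 to 0.0612 and Ackr3 in adipose tissue from -0.163 to 0.198, and with array weights Ackr3 in hypothalamus was -0.0351. The cause was not tested. TMM scaling moved no tissue's median of all genes by more than 0.1. Depth limits members near the minimum mean, such as Cxcr5 in muscle.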
